A study of Mus musculus with 4 samples.

Results

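The genes described here are the 3 D-type cyclins (Ccnd1, Ccnd2 and Ccnd3), their partner kinases Cdk4 and Cdk6, the retinoblastoma gene Rb1, the Myc family genes Myc and Mycl, and Mxd1, an antagonist of Myc. They were chosen by name as regulators of the entry into the cell cycle, and all 9 were found among the 32285 genes of the mouse single-cell RNA-seq matrices. Epidermal cells were profiled in 4 libraries, 1 per group, so that no difference below has a replicate and none was tested. Control animals were DNp63fl/fl, and experimental animals were DNp63fl/fl;K14-CreT2, in which the keratin 14 promoter directs a tamoxifen-dependent Cre to basal keratinocytes. Animals of all 4 groups received 200 mg/kg tamoxifen by gavage each day for 5 days, and cells were taken 1 day or 1 week later. The labels give an age range of 2 to 17 months, both sexes in equal parts, and a digestion of the skin in 0.25% trypsin either at 4 °C or at 37 °C. Which age, sex and digestion belong to which library is not given in the sources used here. The 1-day libraries came from a 3′ kit (version 3.1) and the 1-week libraries from a 5′ kit (version 1.1), so experimental and control were set against each other within a time point and levels were not compared across time.

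D-type cyclins bind Cdk4 or Cdk6, and the active kinases phosphorylate the retinoblastoma protein, which then releases E2F factors that switch on genes of DNA replication. Myc, with its partner Max, binds E-box sequences and drives growth and ribosome production, and it raises the expression of several cell cycle genes. Mxd1 competes for Max and represses through the same E-boxes, and in the epidermis it is known as a gene of differentiating, suprabasal cells. ΔNp63, the main p63 isoform of basal keratinocytes, is required to keep these cells proliferating.

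The promoters of the kinase genes Cdk4 and Cdk6 and of the Myc antagonist are shown because the E-box is the site at which Myc and Mxd1 compete. RefSeq promoters (build GRCm38.p6, as used by the matrices, which the labels call mm10) were at hand for 5 of the 9 genes, and the 250 bases before each start site were searched for CACGTG, a palindrome that reads alike on both strands. Cdk4 (chr10:127063285-127063534, + strand) held 4 copies, Cdk6 (chr5:3343643-3343892, + strand) held 1 and Mxd1 (chr6:86669160-86669409, - strand) held 0. Capitals mark CACGTG.
Cdk4: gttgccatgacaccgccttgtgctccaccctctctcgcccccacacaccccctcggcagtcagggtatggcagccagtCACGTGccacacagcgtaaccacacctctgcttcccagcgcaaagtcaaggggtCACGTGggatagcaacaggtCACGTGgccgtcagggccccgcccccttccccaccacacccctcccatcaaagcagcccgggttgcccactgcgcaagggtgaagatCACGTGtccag
Cdk6: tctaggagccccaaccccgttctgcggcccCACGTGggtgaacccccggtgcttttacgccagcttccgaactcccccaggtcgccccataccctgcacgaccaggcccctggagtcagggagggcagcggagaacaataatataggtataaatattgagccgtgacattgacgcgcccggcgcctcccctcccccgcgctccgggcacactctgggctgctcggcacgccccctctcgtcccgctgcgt
Mxd1: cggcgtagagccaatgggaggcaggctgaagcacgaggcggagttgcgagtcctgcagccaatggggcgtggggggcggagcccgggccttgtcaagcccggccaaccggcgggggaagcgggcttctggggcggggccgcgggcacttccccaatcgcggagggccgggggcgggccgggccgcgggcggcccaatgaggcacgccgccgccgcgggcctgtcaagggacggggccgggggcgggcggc
The first bases of the copies in Cdk4 lay 172, 118, 98 and 11 bases before the start, and that in Cdk6 lay 220 bases before it. Of the 32851 mouse promoters in the table, 6.02% held the motif in this window. Ccnd3, with 2 promoters, and Mycl held none. An E2F-type sequence, TTTNNCGC on either strand, was found 198 bases before the start of Cdk6 and in none of the other member promoters searched, and 4.28% of all promoters held it. A match describes the letters only, and no binding was measured here.

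The matrices held 18413 to 33552 barcodes per library, and 2518 to 20519 keratinocytes remained after filtering and clustering. Before any result, 299 barcodes were found in both 1-day libraries and 661 in both 1-week libraries, and without them the Mxd1 log2 ratios given below were 1.68 and 1.38, as with them. Keratinocyte sums held 107763643 UMIs in control and 72010571 in experimental at 1 day, and 53681197 and 21852733 at 1 week. Trp63, the targeted gene, stood at 404 and 133 counts per 1000000 UMIs (CPM) in control and experimental keratinocytes at 1 day and at 433 and 194 at 1 week, and gene counts do not separate its isoforms. The makeup of the keratinocytes differed between libraries. Basal-like cells, the compartment named by basal markers, numbered 5204 in control and 568 in experimental at 1 day, and 2173 and 20 at 1 week, while suprabasal-like cells numbered 3957 and 408, and 2375 and 7. Keratinocytes whose clusters fit no named compartment numbered 1855 in control and 8298 in experimental at 1 day, and 122 and 142 at 1 week. At 1 day they included a cluster led by Slpi and Sprr2f, genes of the cornifying epidermis, with 9 control and 4456 experimental cells, and a cluster led by mt-Nd6, with Malat1 among its leading genes, with 121 and 2334. They also included the proliferating cluster, led by histone genes with Mki67, Top2a and Cdk1 among its leading genes, with 514 and 547 cells, so the named compartments of 1 day leave these cells out. Orders of compartments below are over the 5 named ones. Hair follicle-like cells were the compartment with the most cells over the 4 libraries (8699, 6078, 2158 and 1921), and each member's level in them is given beside the sum over keratinocytes. Trp63 stood in them at 429 CPM in control and 239 in experimental at 1 day, and at 466 and 235 at 1 week. Clusters led by Krt8, found almost entirely in the experimental libraries (5644 and 692 cells), were kept out of the keratinocyte sum. Intervals below are 95% intervals and cover counting error only.

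Mxd1 was the 1 member at least 2-fold apart between experimental and control keratinocytes, and it was higher in the experimental library at both times. Ccnd1, Ccnd2, Cdk6, Rb1 and Mycl were lower at both times, Mycl with overlapping intervals at 1 day. Ccnd3 and Cdk4 were lower at 1 day and higher at 1 week. Myc was near its control level at 1 week in this sum, with log2 ratios from -0.61 to 0.25 over 14 other ways of processing. At 1 day, 1 of the 9 genes was at least 2-fold higher, beside 6.14% of the 13353 genes measured, and 0 were at least 2-fold lower, beside 2.24%. The median log2 ratio of the 9 was -0.25, beside 0.01 over all genes. At 1 week, 1 was higher, beside 12.0% of 12841 genes, and 0 were lower, beside 5.46%, with a median of -0.17 beside 0.18. Low-UMI clusters resembling free RNA were set aside at 1 week alone. At 1 day 6 keratinocyte clusters past the same limit (4407 control and 5245 experimental cells, of which 4278 and 2637 were hair follicle-like) were kept. Without them, a choice made after seeing the data, Mxd1 was the 1 member past 2-fold at 1 day, with a log2 ratio of 1.66, and the 1-day ratio of Mxd1 in the remaining hair follicle-like cells was 0.63 (0.56 to 0.71) and that of Ccnd2 -0.47 (-0.53 to -0.41). Ccnd1 there stood at 52.2 and 60.7, a ratio of 0.22 (0.08 to 0.35). Without the keratinocytes of no named compartment, also a choice made after seeing the data, Mxd1 was again the 1 member past 2-fold at each time. At 1 day the log2 ratio of Ccnd3 was then 0.10 and that of Myc 0.14, the sign opposite to that of the whole sum. Within hair follicle-like cells no member reached 2-fold at either time. At 1 day the background there was 1.83% of genes at least 2-fold higher and 0.431% at least 2-fold lower. At 1 week these shares were 3.41% and 2.02%. The member medians there were -0.07 beside 0.02, and 0.12 beside 0.07.

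**Figure D1:**
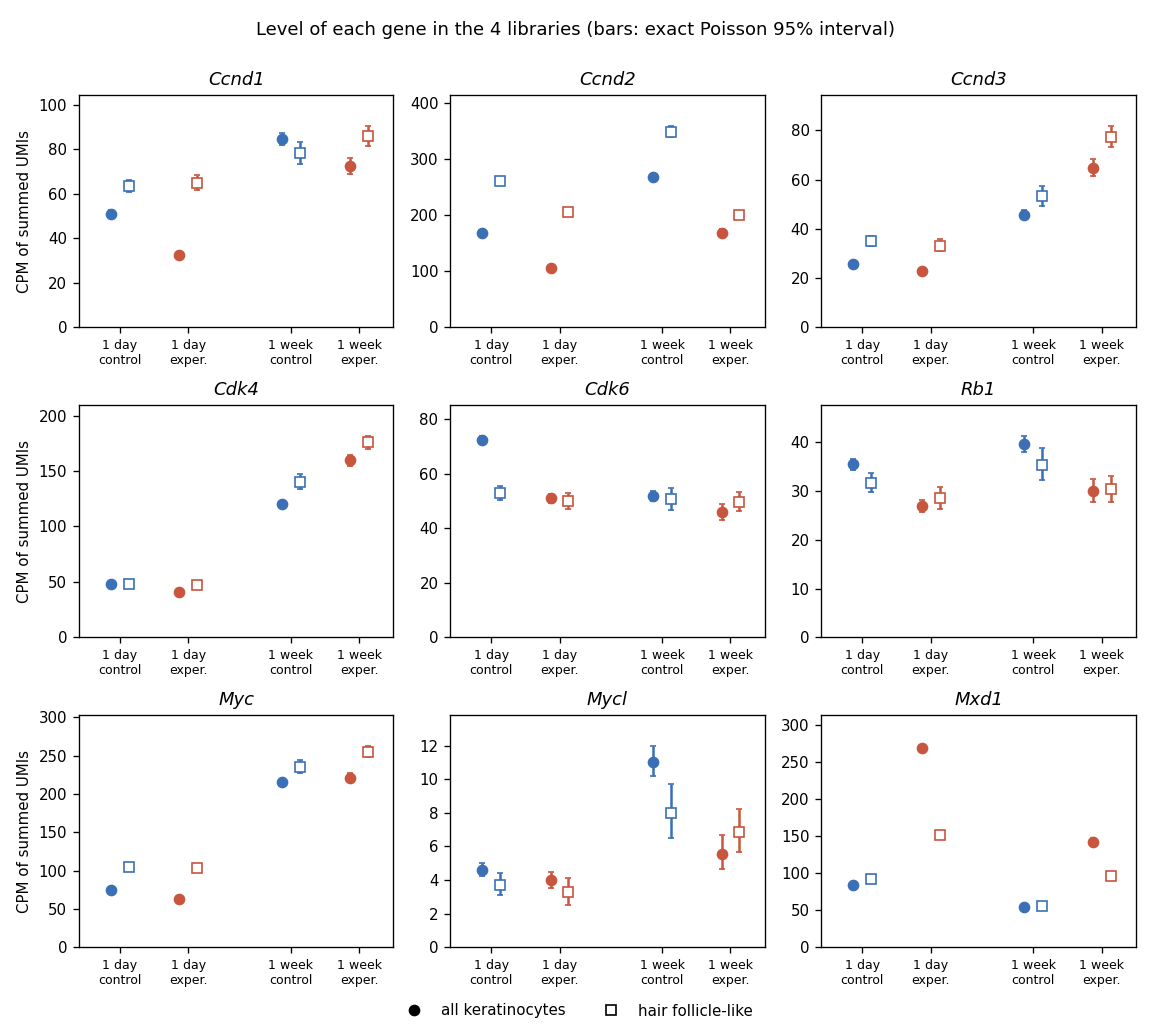
Level of each of the 9 genes, in CPM of summed keratinocyte UMIs, in the control and experimental libraries at 1 day and 1 week, with 95% counting intervals; filled circles are all keratinocytes and open squares hair follicle-like cells. In all keratinocytes Mxd1 stands at 84.0 and 269 at 1 day and at 54.3 and 142 at 1 week, while Ccnd2 is lower in the experimental library at both times.

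Among the D cyclins, Ccnd1 (chr7:144929931-144939925), the cyclin most often linked to growth signals, stood at 51.1 CPM in control keratinocytes and 32.3 in experimental ones at 1 day, and at 84.6 and 72.4 at 1 week. The log2 ratios were -0.66 (-0.73 to -0.59) and -0.22 (-0.31 to -0.14). By compartment the gene marked basal-like and hair follicle-like cells. In the 1-day control library it was at 108 in basal-like cells, 63.4 in hair follicle-like cells, 15.7 in suprabasal-like cells, 10.2 in sebaceous-like cells and 4.82 in granular-like cells. Each step in this order was larger than the counting error except the last, where the intervals 7.26 to 13.9 and 2.08 to 9.50 overlapped. In the compartments with the highest levels the gaps were smaller or absent. Basal-like cells held 108 in control and 87.7 in experimental, hair follicle-like cells 63.4 and 64.9, and suprabasal-like cells 15.7 and 18.5. Sebaceous-like cells went the other way from the sum, at 10.2 and 22.7, a log2 ratio of 1.16 (0.55 to 1.77), and granular-like cells, with 8 UMIs in control, held 4.82 and 10.2, a ratio of 1.08 (-0.03 to 2.38). The lower sum at 1 day stood beside fewer basal-like cells, and with each compartment weighted equally its log2 ratio was 0.00. Such weighting took the sets with at least 50 cells in both libraries. At 1 day these were the 5 named compartments and the cells of no named compartment, and at 1 week the same without basal-like and suprabasal-like cells. The 1-week libraries shared no cluster among the cells of no named compartment, and their granular-like cells were unlike, as described for Mxd1 below. Equally weighted ratios of 1 week therefore rest partly on unlike cells. Without the keratinocytes of no named compartment the 1-day log2 ratio of Ccnd1 was -0.14. With no barcodes removed as doublets it was -1.04, past the 2-fold limit. At 1 week hair follicle-like cells held 78.1 and 86.0.

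Ccnd2 (chr6:127125162-127152193) was the D cyclin whose level was lower in experimental cells at both times and in the hair follicle-like compartment as well. Keratinocytes held 168 CPM in control and 105 in experimental at 1 day, and 268 and 169 at 1 week. On the log2 scale the ratios were -0.68 (-0.72 to -0.65) and -0.66 (-0.71 to -0.61). Hair follicle-like cells held 261 and 205 at 1 day, a log2 ratio of -0.35 (-0.40 to -0.30), and 349 and 199.9 at 1 week, a ratio of -0.81 (-0.87 to -0.74). The gap was seen in all 5 clusters with at least 50 cells in both 1-week libraries, with log2 ratios from -6.19 to -0.35. The lowest was that of the granular-like cluster, whose cells differed between the libraries, as described for Mxd1 below. At 1 day the clusters were split, with 9 of 16 lower and 7 higher, from -0.78 to 0.86. The interval lay below 0 in 7 of these and above 0 in 6. The 1-week cluster led by Fst, Sostdc1 and Lrig1, genes of the hair follicle, held 545 and 288, and the cluster led by Cst6, Krt79 and Defb6 held 127 and 56.5. Among 1-day compartments in control, sebaceous-like cells stood at 284, basal-like at 266 and hair follicle-like at 261, with intervals that overlapped from each to the next. Hair follicle-like cells held 319 (312 to 327) without the clusters past the free-RNA limit. Suprabasal-like cells at 42.5 and granular-like cells at 23.5 were far below. Suprabasal-like cells ran against the sum, with 42.5 and 57.4, as did granular-like cells, with 23.5 and 36.5, a log2 ratio of 0.64 (0.12 to 1.18). Without the keratinocytes of no named compartment the 1-day log2 ratio of the sum was -0.14. Over keratinocytes it passed the 2-fold limit at 1 day with no doublets removed (-1.05), and at 1 week with compartments weighted equally (-1.57) or with Krt8-led cells counted (-1.12).

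Ccnd3 (chr17:47505051-47599691), a D cyclin that many differentiated cells keep, stood at 25.8 and 23.0 CPM in control and experimental keratinocytes at 1 day and at 45.7 and 64.8 at 1 week. The log2 ratios were -0.16 (-0.25 to -0.08) and 0.51 (0.41 to 0.60). Hair follicle-like cells held 34.9 and 33.2 at 1 day, with intervals that overlapped, and 53.4 and 77.5 at 1 week, a log2 ratio of 0.54 (0.40 to 0.68). All 3 hair follicle-like clusters of 1 week were higher in the experimental library, by log2 ratios of 0.33 to 0.71. The same direction appeared outside keratinocytes at 1 week. Immune cells held 100.3 and 147, and Langerhans-like cells 52.8 and 119. Free RNA was not separated from the cells' own RNA here, and its part in these levels was not tested. In the 1-day control library the gene was highest in hair follicle-like cells (34.9). Basal-like (22.9), suprabasal-like (21.9) and sebaceous-like cells (17.8) followed, whose intervals overlapped from each to the next, and then granular-like cells (7.23). Without the 1-day clusters past the free-RNA limit, hair follicle-like cells of control held 24.9 (22.8 to 27.2), close to basal-like and suprabasal-like cells. Among 1-week clusters shared by the libraries the granular-like cluster was the exception, with 43.4 and 7.66, and with compartments weighted equally the 1-week ratio was -0.14.

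**Figure D2:**
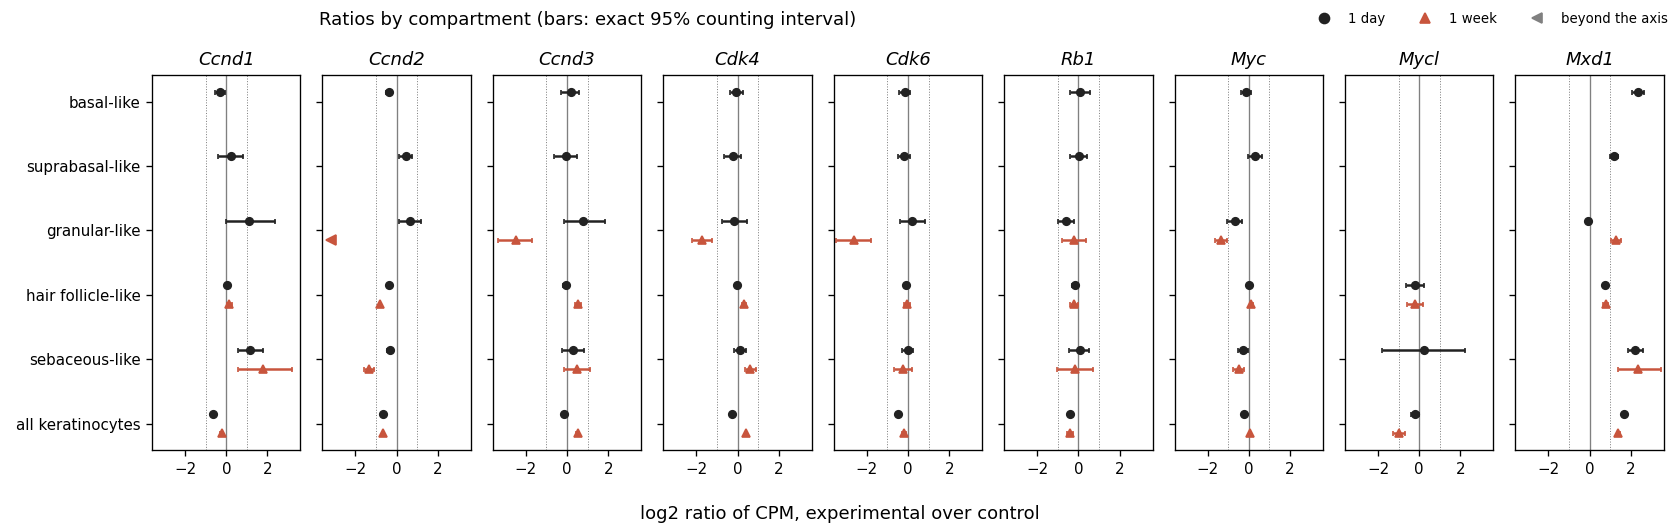
Log2 ratio of experimental over control for each gene within keratinocyte compartments at 1 day and 1 week, for compartments with at least 50 cells and 4 UMIs in both libraries, with 95% counting intervals. The arrow marks Ccnd2 in granular-like cells at 1 week, whose ratio of -6.19 lies beyond the axis. Sebaceous-like cells at 1 week include a cluster of 182 cells from the experimental library alone. Mxd1 lies above 0 in every compartment drawn except the granular-like cells at 1 day.

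Cdk4 (chr10:127063534-127067920), the kinase whose promoter carries 4 E-boxes above, differed little at 1 day and was higher in experimental cells at 1 week. Keratinocytes held 48.4 CPM in control and 40.7 in experimental at 1 day, and 120.1 and 159.9 at 1 week. The log2 ratios were -0.25 (-0.32 to -0.19) and 0.41 (0.35 to 0.47). Hair follicle-like cells held 48.1 and 47.2 at 1 day, then 140.4 and 176 at 1 week, with a 1-week log2 ratio of 0.33 (0.24 to 0.41). Sebaceous-like cells of the 1 cluster that both 1-week libraries shared held 153 and 264. Hair follicle-like clusters were not alike at 1 week. The Fst-led cluster held 168 and 228, whereas the cluster led by Cd34, a marker of the follicle bulge, held 135 and 122, with a log2 ratio of -0.14. With compartments weighted equally the ratio over keratinocytes at 1 week was 0.01. The 1-day control compartments spanned 21.1 in granular-like cells to 66.4 in sebaceous-like cells, and basal-like (51.7), hair follicle-like (48.1) and suprabasal-like cells (46.6) lay between them with intervals that overlapped from each to the next. The proliferating cluster of 1 day was the highest, at 103 and 89.2.

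Cdk6 (chr5:3341485-3531008), the second D cyclin kinase, stood at 72.3 and 51.0 CPM at 1 day and at 51.7 and 45.9 at 1 week. As log2 ratios these were -0.50 (-0.56 to -0.45) and -0.17 (-0.28 to -0.07). In hair follicle-like cells the intervals overlapped at 1 day (52.9 and 49.9) and at 1 week (50.7 and 49.6). Without the 1-day clusters past the free-RNA limit these cells held 66.4 and 59.3 at 1 day, a ratio of -0.16 (-0.29 to -0.04). In basal-like cells the 1-day values were 81.8 and 73.0, a ratio of -0.16 (-0.42 to 0.08). In the 1-day control library Cdk6 was highest in suprabasal-like (86.7), basal-like (81.8) and sebaceous-like cells (79.5), neighbours whose intervals overlapped, then in hair follicle-like (52.9) and granular-like cells (19.3).

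Rb1 (chr14:73183673-73325822), which encodes the brake that the D cyclin kinases release, was lower in experimental keratinocytes at both times, with the same log2 ratio. It stood at 35.5 and 26.9 CPM at 1 day and at 39.7 and 30.1 at 1 week, ratios of -0.40 (-0.48 to -0.32) and -0.40 (-0.53 to -0.27). The ratios were smaller in hair follicle-like cells, -0.15 (-0.30 to -0.01) at 1 day and -0.22 (-0.40 to -0.03) at 1 week. Basal-like cells had a 1-day ratio of 0.10 and suprabasal-like cells 0.01. The keratinocytes of no named compartment held 63.9 and 25.5 at that time, a ratio of -1.33 (-1.45 to -1.21), and without them the 1-day ratio of the sum was -0.03. These cells lay in different clusters in each library, 1095 of the 1855 control cells in the Ivl-led cluster and 4456 and 2334 of the 8298 experimental cells in those led by Slpi and mt-Nd6. The 1-day control compartments stood in an order unlike that of Ccnd1, from 19.1 in basal-like cells through 23.3 in sebaceous-like, 31.7 in hair follicle-like and 35.4 in suprabasal-like cells to 52.4 in granular-like cells. The intervals of basal-like and sebaceous-like cells overlapped, as did those of hair follicle-like and suprabasal-like cells. Without the 1-day clusters past the free-RNA limit, hair follicle-like cells of control held 25.7 (23.5 to 28.0), closer to sebaceous-like cells. The highest control cluster was the one led by Ivl, which encodes involucrin of the cornified envelope, at 74.6.

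Myc (chr15:61985391-61990374) itself differed little between the libraries in the sums over keratinocytes. Keratinocytes held 74.5 CPM in control and 63.2 in experimental at 1 day, a log2 ratio of -0.24 (-0.29 to -0.18). At 1 week they held 216 and 221, a ratio of 0.04 (-0.01 to 0.08) that was -0.15 with TMM scaling. Over 14 alternatives of the processing the 1-week ratio ran from -0.61 to 0.25, and 8 of them kept its sign. Hair follicle-like cells held 105 and 104 at 1 day, then 235 and 255 at 1 week. Its clusters differed in direction at 1 week. The Cd34-led cluster held 251 and 447, a log2 ratio of 0.83, while the Fst-led cluster held 282 and 237, a ratio of -0.25, and the Cst6-led cluster 109 and 111. At 1 day the cluster led by Krt24 and Cd34 was the highest in control, at 208, and it held 197 in the experimental library. The compartments of 1-day control ran from hair follicle-like (105) and sebaceous-like (92.9) through basal-like (81.8) and granular-like (64.5) to suprabasal-like cells (48.6). The intervals of the first 3 overlapped from each to the next. The top place rested on clusters past the free-RNA limit, among them the cluster led by Krt24 and Cd34. Without them hair follicle-like cells of control held 75.0 (71.3 to 78.8), below sebaceous-like and basal-like cells.

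Mycl (chr4:122995652-123002485), a Myc paralogue, was sparse, with 497 and 288 UMIs in the 1-day keratinocytes and 592 and 122 in those of 1 week. Its level was 4.61 and 4.00 CPM at 1 day, with overlapping intervals, and 11.0 and 5.58 at 1 week. The 1-week log2 ratio was -0.98 (-1.28 to -0.70), close to the 2-fold limit, and with TMM scaling it was past it at -1.17. Among the named compartments of control the gene was highest in suprabasal-like cells, at 6.89 at 1 day and 18.8 at 1 week, followed at 1 day by hair follicle-like (3.72), basal-like (1.77) and sebaceous-like cells (1.57), the last 2 with overlapping intervals, and granular-like cells had 0 UMIs (0 to 2.22 CPM). Keratinocytes of no named compartment stood at 7.69 in 1-day control. At 1 week 7 suprabasal-like cells were present in the experimental library. Within hair follicle-like cells the 1-week values were 7.97 and 6.87, with a ratio of -0.21 (-0.61 to 0.19).

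Mxd1 (chr6:86647042-86669161), the Myc antagonist, was higher in experimental keratinocytes at both times and in nearly every cluster. Keratinocytes held 84.0 CPM in control and 269 in experimental at 1 day, and 54.3 and 142 at 1 week. The log2 ratios were 1.68 (1.64 to 1.71) and 1.38 (1.31 to 1.46). It was higher in 15 of 16 clusters with at least 50 cells in both 1-day libraries, where the median log2 ratio was 1.46, and in 5 of 5 at 1 week, where the ratios ran from 0.71 to 1.70. The 1 exception was the main 1-day granular-like cluster, at 453 and 431. With compartments weighted equally the ratio over keratinocytes was 0.69 at 1 day and 1.12 at 1 week.

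In the 1-day control library the levels of Mxd1 and Ccnd1 had opposite ends, while hair follicle-like cells were the second highest for both genes. Mxd1 was lowest in basal-like cells (14.8), followed by sebaceous-like (22.5), suprabasal-like (83.2) and hair follicle-like cells (91.7), and granular-like cells stood at 446. No neighbouring intervals in that order overlapped. The 1-week control library gave 7.76 in basal-like and 8.24 in sebaceous-like cells, with intervals that overlapped, then 55.9 in hair follicle-like, 83.6 in suprabasal-like and 212 in granular-like cells. There the ends were not opposite to those of Ccnd1, which stood lowest in sebaceous-like cells (5.77) and at 51.8 in granular-like cells. At 1 day the compartments that were low in control were those with the larger ratios. Basal-like cells held 14.8 in control and 76.2 in experimental, a log2 ratio of 2.36 (2.07 to 2.64), and sebaceous-like cells 22.5 and 104, a ratio of 2.20 (1.85 to 2.57). These 1-day experimental levels lay below those of immune, fibroblast-like and melanocyte-like cells of the same library, given below. The part of free RNA in them was not tested. Suprabasal-like cells held 83.2 and 191, a ratio of 1.20 (1.01 to 1.38). Granular-like cells, already high, held 446 and 427, a ratio of -0.06 (-0.19 to 0.06).

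Hair follicle-like cells carried a smaller gap than the keratinocyte sum. They held 91.7 and 152 at 1 day, a log2 ratio of 0.73 (0.66 to 0.80), and 55.9 and 96.2 at 1 week, a ratio of 0.78 (0.65 to 0.91). All 7 clusters of 1 day and all 3 of 1 week were higher in the experimental library, and the interval lay above 0 in 7 and in 2 of them. Levels differed widely among them. The clusters with Cst6 and Krt79, genes of the upper follicle, among their leading genes held 251 and 392, and 264 and 336, at 1 day, and their 1-week counterpart held 191 and 322. The 1-day cluster led by Krt24 and Cd34 held 13.4 and 38.6, and the Cd34-led cluster of 1 week held 5.79 and 9.45.

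At 1 day the 8298 keratinocytes of no named compartment held 13535 of the 19348 keratinocyte Mxd1 UMIs of the experimental library, or 70.0%, against 2713 of 9054 in the 1855 such cells of control. Their levels were 337 and 140.0 CPM, and the Slpi-led cluster stood at 390.1 in experimental. Without these cells the 1-day log2 ratio was 1.35.

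Much of the 1-week difference lay in few cells. The 166 granular-like cells of the experimental library held 1349 of its 3095 keratinocyte Mxd1 UMIs, or 43.6%, against 6.03% in the 56 granular-like cells of control. Without granular-like cells, a choice made after seeing the data, the 1-week log2 ratio was 0.81, under the 2-fold limit, and the 1-day ratio was 1.72. These 2 sets of granular-like cells were not alike. The control cells carried the basal keratins Krt5 and Krt14 at 4425 and 4889 CPM, against 132 and 124 in the experimental cells, and Lor, which encodes loricrin, at 23883 against 63171. Within them Mxd1 stood at 212 and 517 and Ccnd2 at 224 and 3.06.

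The share of keratinocytes with an Mxd1 UMI, each cell thinned to 2000 UMIs, was 10.9% (10.5 to 11.4) in control and 34.4% (33.6 to 35.2) in experimental at 1 day, and 7.25% (6.63 to 7.91) and 16.0% (14.6 to 17.6) at 1 week. Unthinned, the shares were 21.5% and 48.0%, and 18.6% and 31.7%. Immune cells, whose median depth at 1 day was 1521 and 2348 UMIs beside 4315 and 3315 in keratinocytes, gave 16.0% in control and 28.0% in experimental at 1 day, and 9.91% and 17.1% at 1 week. Shares in hair follicle-like cells, 11.9% and 20.8%, and 7.39% and 12.5%, were below those of immune cells of the same library, and so were those of all keratinocytes except in 1-day experimental. The intervals overlapped those of immune cells at 1 week, and for hair follicle-like cells in 1-day control as well. Free RNA was not separated from the cells' own RNA in any group named here, 1-day experimental keratinocytes included. Its part was not tested. The level in other cells was also higher in the experimental library at 1 day, at 43.8 and 248 CPM in fibroblast-like cells and 19.9 and 150.3 in melanocyte-like cells. At 1 week fibroblast-like cells stood at 22.5 and 39.4 and endothelial-like cells at 23.2 and 19.1. The levels of the clusters with Cst6 and Krt79 exceeded those of immune cells, in which Mxd1 stood at 99.8 in control and 181 in experimental at 1 day, and at 51.0 and 117 at 1 week. The Krt8-led cells of the experimental libraries held Mxd1 at 240.1 CPM at 1 day and 195 at 1 week.

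**Figure D3:**
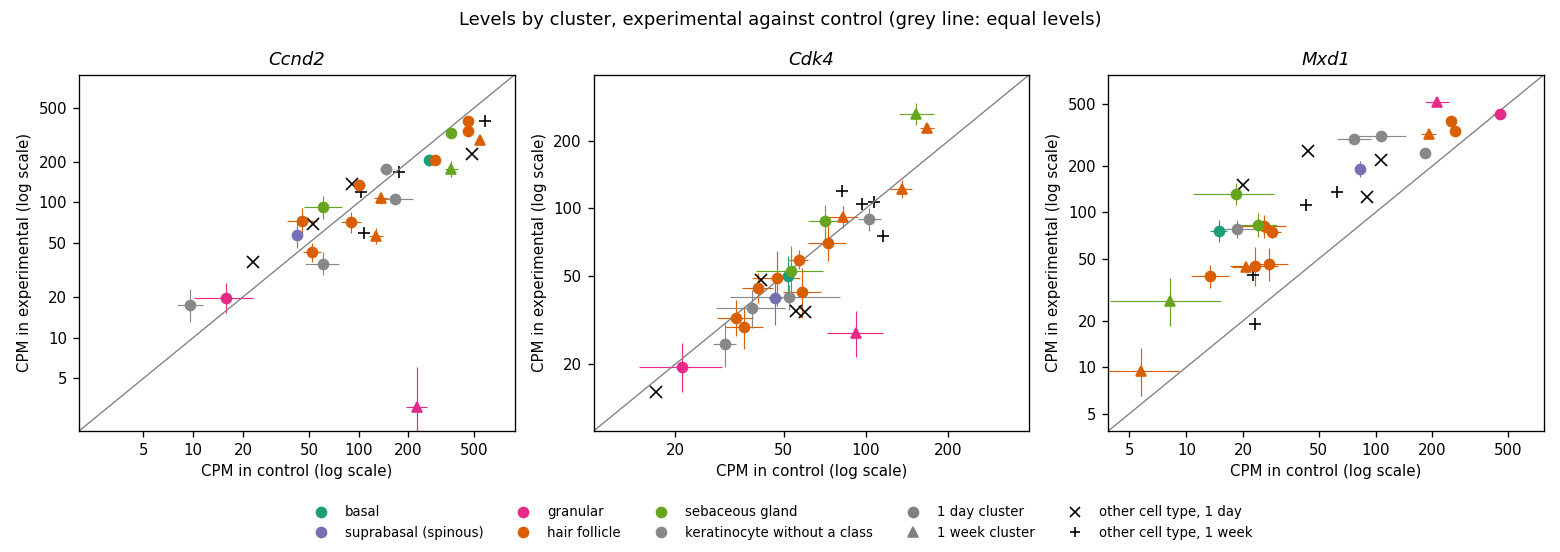
CPM of Ccnd2, Cdk4 and Mxd1 in experimental (y) against control (x) for each cluster with at least 50 cells in both libraries, on log axes, with 95% counting intervals on the keratinocyte clusters (circles at 1 day, triangles at 1 week), other cell types as crosses and the line of equal level. Keratinocyte points of Mxd1 lie above the line except the granular-like cluster at 1 day (453 and 431), and those of Ccnd2 at 1 week lie below it.

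To compare cycling with non-cycling cells, keratinocytes of at least 2000 UMIs were thinned to 2000, and those with at least 3 UMIs from a list of 42 G2/M genes were called cycling and those with 0 non-cycling. No member is on that list, though which cells are called depends on other genes of the same cells, so the ratios are descriptions. Cycling cells made up 6.16% of 18067 cells in 1-day control, 7.85% of 13430 in 1-day experimental, 9.07% of 6524 in 1-week control and 11.3% of 2315 in 1-week experimental. Among hair follicle-like cells the shares were 2.17%, 5.21%, 8.45% and 12.8%. Of the 148 such cells in 1-day control 67 lay exactly at 3 UMIs. Without Ttk, Cks2 and Hjurp in the list, a choice made after seeing the data, the shares over keratinocytes were 4.99%, 6.66%, 6.56% and 10.1%. Among hair follicle-like cells they were then 1.35%, 3.97%, 7.34% and 11.6%. The median depth of cycling cells was 6395, 4184.5, 7588.5 and 13757.5 UMIs, above the 4497, 3985, 6435.5 and 5971 of non-cycling cells, and its part in the ratios was not tested.

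Mxd1 was lower in cycling than in non-cycling cells in all 4 libraries, and Cdk4 was higher in all 4. Mxd1 stood at 27.3 CPM in cycling and 91.5 in non-cycling cells of 1-day control, at 107 and 299 in 1-day experimental, at 32.4 and 58.9 in 1-week control and at 40.3 and 199 in 1-week experimental. In log2 these ratios were -1.75, -1.48, -0.86 and -2.30. Cdk4 stood at 79.4 and 45.3, at 70.5 and 35.2, at 152 and 113 and at 279 and 113, with log2 ratios of 0.81, 1.00, 0.42 and 1.30. Ccnd3 was also higher in cycling cells of every library, by 0.38, 0.87, 0.38 and 0.69.

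Over all keratinocytes the other members did not keep 1 direction. Ccnd1 ratios were 0.32, 1.17, -0.34 and 0.71, and Ccnd2 ratios were -0.15, 1.02, -0.01 and 0.31, in the same order of libraries. Cdk6 gave -0.17, 0.39, -0.08 and 0.86, with the higher values in the experimental libraries. Rb1 lay between -0.07 and 0.39, and Myc between -0.18 and 0.56. Past 2-fold were 1 member in 1-day control (Mxd1, lower), 4 in 1-day experimental (Ccnd1, Ccnd2 and Cdk4 higher, Mxd1 lower), 0 in 1-week control and 2 in 1-week experimental (Cdk4 higher, Mxd1 lower). Near the limit the calls moved with the settings. With another random draw of UMIs the count in 1-day experimental was 2 (Ccnd1 and Mxd1), and the Mxd1 ratio of 1-week control passed 2-fold in 5 of 7 alternatives. The background was 8.14% of genes higher and 7.51% lower in 1-day control, 13.6% and 7.91% in 1-day experimental, 6.64% and 4.86% in 1-week control, and 10.4% and 10.4% in 1-week experimental.

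**Figure D4:**
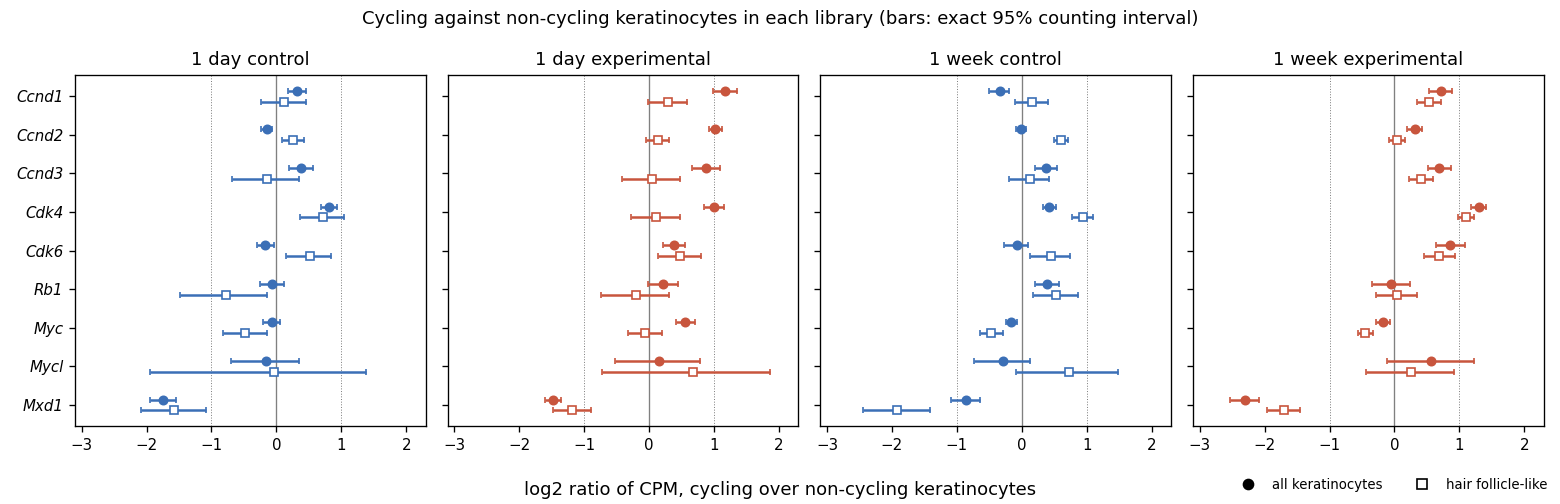
Log2 ratio of cycling over non-cycling keratinocytes for each gene in the 4 libraries, with 95% counting intervals, for all keratinocytes (filled circles) and hair follicle-like cells (open squares). In all keratinocytes Mxd1 lies below 0 in every library, from -2.30 to -0.86, and Cdk4 lies above 0, from 0.42 to 1.30.

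The states differed in their makeup. Non-cycling cells at 1 day were 24.8% basal-like in control and 3.39% in experimental, and 6.80% and 50.1% were of no named compartment. Of the cycling cells at 1 day 45.1% and 66.7% were of no named compartment, so ratios within hair follicle-like or basal-like cells leave these out. In 1-week experimental, 88.2% of cycling cells were hair follicle-like, against 26.9% in 1-week control, and basal-like cells made up 33.6% of the control cycling cells and 1.53% of the experimental ones. Suprabasal-like cells were 35.8% of the control cycling cells, the largest share, and 0 of the experimental ones, and the G2/M gene Ttk is among the leading genes of the 1-day suprabasal-like cluster. Within hair follicle-like cells alone the contrast kept the same signs for Mxd1 and Cdk4 in all 4 libraries. Mxd1 ratios were -1.57, -1.18, -1.92 and -1.70, and Cdk4 ratios were 0.71, 0.11 and 0.94 in the first 3, of which the 0.11 of 1-day experimental had an interval of -0.28 to 0.48. In 1-week experimental Cdk4 stood at 278 in cycling and 129.9 in non-cycling hair follicle-like cells. The ratio of Ccnd3 was -0.14 (-0.68 to 0.35) in 1-day control and 0.04 (-0.42 to 0.48) in 1-day experimental there. Cdk6 was higher in cycling hair follicle-like cells of all 4 libraries, by 0.51, 0.48, 0.45 and 0.69, with intervals above 0. Ccnd1 ratios there were 0.12, 0.29, 0.16 and 0.53, and Ccnd2 ratios 0.26, 0.13, 0.60 and 0.04. Several of these Ccnd1 and Ccnd2 ratios had intervals that included 0. Myc was lower in cycling hair follicle-like cells of 3 libraries, at -0.48, -0.47 and -0.45, and was near equal in 1-day experimental, at -0.06.

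Basal-like cells differed from this. With 359 cycling cells in 1-day control and 199 in 1-week control, Cdk4 ratios there were -0.15 (-0.45 to 0.13) and -0.23 (-0.44 to -0.02), below 0 in place of above it. Mxd1 ratios were -0.49 (-1.10 to 0.08) and 0.65 (-0.12 to 1.38). Ccnd2 was more than 2-fold lower in cycling basal-like cells of both control libraries, at -1.16 (-1.33 to -0.99) and -1.48 (-1.64 to -1.33), and Ccnd1 had ratios of -0.42 (-0.64 to -0.21) and -1.31 (-1.55 to -1.07). Rb1 stood at 57.2 in cycling and 23.8 in non-cycling basal-like cells of 1-week control. In 1-day control it stood at 19.9 and 18.9, a ratio of 0.07 (-0.40 to 0.52). The experimental libraries held 21 and 4 cycling basal-like cells, too few to describe.

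Set against control within a state, the members differed by state. Among cycling keratinocytes Mxd1 stood at 27.3 in control and 107 in experimental at 1 day, a log2 ratio of 1.97 (1.75 to 2.20), and at 32.4 and 40.3 at 1 week, a ratio of 0.31 (0.01 to 0.62). Among non-cycling cells the ratios were 1.71 (1.66 to 1.75) and 1.75 (1.66 to 1.84). The 1-week difference by state was not seen in hair follicle-like cells, where cycling cells held 18.1 and 37.4, a ratio of 1.05 (0.51 to 1.62), and non-cycling cells had 0.83 (0.67 to 0.98). At 1 day the ratios there were 1.22 (0.65 to 1.81) and 0.84 (0.75 to 0.93). Ccnd1 showed no gap among cycling cells at 1 day, at 61.9 and 59.0, while non-cycling cells held 49.5 and 26.2, a ratio of -0.92 (-1.02 to -0.82). Within compartments the non-cycling ratio was smaller, -0.11 (-0.25 to 0.02) in hair follicle-like and -0.13 (-0.43 to 0.16) in basal-like cells. At 1 week Cdk4 was higher among cycling cells, at 152 and 279, a ratio of 0.88 (0.75 to 1.01), and equal among non-cycling cells, at 113 and 113. Cycling hair follicle-like cells held 228 and 278, a smaller ratio of 0.29 (0.13 to 0.45). Ccnd2 in cycling hair follicle-like cells of 1 week stood at 459.9 and 189, a ratio of -1.28 (-1.42 to -1.14).

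Among 28 other measured genes of the G1 phase (cyclin E and its kinase, CDK inhibitors, pocket proteins and E2F factors), 1 was at least 2-fold higher in experimental keratinocytes at 1 day and 1 lower. The shares of all genes were 6.14% and 2.24%, and the median of 0.01 was that of all genes. E2f2, an activating E2F, stood at 1.81 and 5.62 CPM, and E2f7, a repressive one, at 1.61 and 0.750. At 1 week 4 were at least 2-fold higher, near the 12.0% of all genes, and 0 lower, beside 5.46%, with a median of 0.33 beside 0.18. E2f2 stood at 2.70 and 11.0, Ccne1 (cyclin E) at 1.17 and 3.98 and E2f1 at 3.15 and 8.88. Cdkn1a, the CDK inhibitor p21, stood at 639 and 1141 at 1 day and at 1190.3 and 733 at 1 week. In hair follicle-like cells 2 of the genes were past 2-fold at each time, all higher, beside 1.83% of all genes at 1 day and 3.41% at 1 week, and Cdkn1a stood at 559.8 and 618, and at 725 and 658.

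Of the other Myc network genes, 0 of 20 were past 2-fold at 1 day, beside 6.14% of all genes higher and 2.24% lower. At 1 week 2 of 21 were, both higher, which is below the 12.0% of all genes, with a median of 0.07 beside 0.18. These were Mxd3, another Mxd family member (2.40 and 7.09), and Aurka, a kinase that protects Myc family protein (2.53 and 5.54). Mxi1, a further Max partner that opposes Myc, stood at 43.1 and 66.3 at 1 day, a log2 ratio of 0.62 (0.56 to 0.68). In hair follicle-like cells none of these genes was past 2-fold at either time, and Mxi1 stood at 48.7 and 50.7 at 1 day, a ratio of 0.06 (-0.05 to 0.17). Among 30 Myc target genes of ribosome production and growth, 0 were past 2-fold at 1 day, and 27 were lower, with a median of -0.37 beside 0.01 over all genes. Srm (spermidine synthase) stood at 58.4 and 32.4, and Rrs1, a ribosome assembly factor, at 60.6 and 38.7. At 1 week 1 was at least 2-fold higher, Cad of pyrimidine synthesis (11.6 and 25.3), which is below the 12.0% of all genes. The median equalled that of all genes, at 0.18. In hair follicle-like cells 20 of 30 were lower at 1 day, with a median of -0.08 beside 0.02, and 28 of 30 were higher at 1 week, with a median of 0.44 beside 0.07.

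Of 26 S phase genes, 0 were past 2-fold at 1 day, beside 6.14% of all genes higher and 2.24% lower. At 1 week 12 were at least 2-fold higher, beside 12.0% of all genes, and the median was 0.97 beside 0.18. Rrm2, a subunit of ribonucleotide reductase, stood at 15.3 and 46.7 and Mcm5 of the replicative helicase at 9.17 and 28.4. Of 42 G2/M genes, 12 were at least 2-fold higher at 1 week and 1 lower, beside 12.0% and 5.46% of all genes, with a median of 0.59 beside 0.18. Plk1, the mitotic kinase, stood at 3.24 and 12.9, while Ttk stood at 36.5 and 4.48. Among hair follicle-like cells 4 S phase and 2 G2/M genes were at least 2-fold higher at 1 week, beside 3.41% of all genes, with medians of 0.56 and 0.33 beside 0.07. At 1 day 1 of 25 S phase genes and 5 of 35 G2/M genes were at least 2-fold higher there, beside 1.83% of all genes, and 1 G2/M gene was lower. Of these lists 25 and 34 genes had ratios above 0, with medians of 0.28 and 0.70 beside 0.02.

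Of 16 dissociation and stress genes, 2 were at least 2-fold higher at 1 day (Btg2 at 447 and 1085, Dusp1 at 387 and 797), beside 6.14% of all genes. At 1 week 0 were, beside 12.0%. Their medians were 0.44 beside 0.01, and 0.45 beside 0.18. Their summed level was 5966 in control and 8481 in experimental keratinocytes at 1 day and 12881 and 17692 at 1 week. In hair follicle-like cells the sums were 9990.4 and 11142, and 18953 and 18579. The 13 mitochondrial transcripts summed to 42505 and 44698 CPM in keratinocytes at 1 day, and to 15653 and 20886 at 1 week, while hair follicle-like cells held 47049.8 and 50108, and 19839 and 21749.8. The 9 Langerhans cell markers summed to 966 and 1992 CPM in keratinocytes at 1 day and to 925 and 1754 at 1 week, with none at 0, and the 11 T cell markers to 64.5 and 36.7, and to 86.0 and 34.3. Their part in the differences above was not tested.

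The pattern of each member over compartments was compared with that of 10854 genes, by the mean over the times of Pearson's r across 12 points at 1 day and 11 at 1 week, each a compartment of 1 library. The points share libraries and depth, so the values describe likeness only. Nearest to Mxd1 were Sort1, Gsdma and Asprv1, the last a protease of the granular layer, with a mean r of 0.96 each. Asprv1 is also among the markers by which granular-like cells were named, so its likeness is not independent of the naming. Ccnd1 was nearest to Htra1, Bcam and Pxdc1, the first at 0.96, and Ccnd2 to Acsl3, Gga2 and Ppp2r2d, the first at 0.97. Cdk4 was nearest to Ddx39b (0.97), Gart and Vdac3, and Cdk6 to Park7 (0.96), Hmgn1 and Ran. Ccnd3 had Gnai2 (0.94), Plp2 and Aprt, Rb1 had Mfsd6 (0.91), AI413582 and Gal3st4, and Myc had Thra (0.92), Chtop and Smad1. For Mycl the nearest was Slc9a9 (0.84), followed by Pycard and 4833423E24Rik.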

How the data were processed

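Single-cell 10x Genomics libraries of mouse epidermis, 1 per group, were analysed from the deposited filtered matrices of raw UMI counts per gene and barcode. The authors made these counts with Cell Ranger 5.0.1 on mm10, and Seurat is also named, per the submitters' processing notes. Barcodes below 500 UMIs or 300 genes, or above 15% mitochondrial UMIs, were dropped, and the highest Scrublet scores were removed, up to 0.8% per 1000 barcodes (2699 to 8211 barcodes per library). Both libraries of a time were clustered jointly in scanpy 1.11.5 (2000 variable genes without any gene of the lists, 30 principal components, 15 neighbours, Leiden resolution 1). Clusters were named from markers. At 1 week 11525 control and 11335 experimental cells in low-UMI clusters, with at least 50% of cells resembling free RNA, were set aside, and at 1 day such clusters were kept. Raw counts were summed per library and compartment and scaled to CPM. Poisson intervals were used for levels, conditional binomial intervals for ratios and Clopper-Pearson intervals for shares, at 95% and for counting error only. A gene needed 50 UMIs over the libraries compared. There was 1 library per group, so no test was run. The ratio and interval code was tested on simulated data. Of each other list, the 3 highest and 3 lowest log2 ratios could be named. edgeR 4.0.16 gave TMM factors for an alternative scaling. Gene positions are from GENCODE on GRCm38. Members, lists and naming limits were chosen with earlier results of these data known.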

Additional observations from a re-analysis of the deposited data

Results flagged for a closer look

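The log2 ratios of 2 members over all keratinocytes had opposite signs at the 2 times. That of Ccnd3 was -0.16 at 1 day and 0.51 at 1 week, and that of Cdk4 was -0.25 at 1 day and 0.41 at 1 week. Without the keratinocytes of no named compartment that of Ccnd3 was 0.10 at 1 day and 0.53 at 1 week, with 1 sign at both times. Each time point is 1 library against 1, so the difference between times was not tested, and the kits differ between the times, so time and kit cannot be told apart.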

How the results depend on the processing

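The number of the 9 genes past 2-fold between experimental and control keratinocytes was 1 at 1 day and 1 at 1 week, Mxd1 in each case. At 1 day it was 3 with no barcodes removed as doublets (Ccnd1, Ccnd2 and Mxd1), and 0 with compartments weighted equally or in hair follicle-like cells only. At 1 week it was 2 with TMM factors, with totals that left out mitochondrial and ribosomal protein genes, with no doublets removed, with compartments weighted equally, with Krt8-led clusters counted and with all cells passing filters. It was 0 at 1 week in hair follicle-like cells only and without the granular-like cells. The second gene was Mycl under the first 3 of these and Ccnd2 under the others. The cause was not tested. Equal weighting at 1 week rested partly on unlike cells, as given above. TMM factors lowered every 1-week ratio alike, that of Mxd1 from 1.38 to 1.19. Between cycling and non-cycling cells the count was 1 in 1-day control and 0 with at least 2 G2/M UMIs. It was 4 in 1-day experimental, 2 with another random draw and 1 in hair follicle-like cells. It was 0 in 1-week control and 1 with at least 5 G2/M UMIs, with at least 3 S phase UMIs, thinned to 1000 UMIs, in hair follicle-like cells only and without Ttk, Cks2 and Hjurp. It was 2 in 1-week experimental and 5 with at least 3 S phase UMIs. Mxd1 was higher in experimental keratinocytes in all 17 alternatives at 1 day (log2 ratios 0.69 to 1.82, 15 past 2-fold) and in all 14 at 1 week (0.78 to 1.57, 12 past 2-fold), and lower in cycling cells in all 7 alternatives of each library. Those 7 did not include basal-like cells alone. There the Mxd1 ratio was -0.49 (-1.10 to 0.08) in 1-day control and 0.65 (-0.12 to 1.38) in 1-week control. Alternatives for shared barcodes, granular-like cells, keratinocytes of no named compartment, the cluster led by mt-Nd6, clusters past the free-RNA limit, hashtags, hair follicle-like cells against control, the shorter G2/M list and the second draw were chosen after seeing the data. No paired analysis was possible because each group is 1 library. With 122 Mycl UMIs in 1-week experimental keratinocytes, depth limits that gene most.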

Other observations

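The 1-day matrices also held counts of hashtag antibodies, whose meaning the labels do not give, and 3 tags held nearly all of them (the fourth had 2256 and 1425 counts in all). Among keratinocytes with a clear tag, Mxd1 stood at 75.9, 102 and 104 CPM in the 3 tags of the control library and at 286, 296 and 265 in those of the experimental library, so the tags of the libraries did not overlap. Within hair follicle-like cells the levels lay closer, at 87.0, 146 and 150.3 in control and at 174, 180.2 and 157 in experimental, where the counting intervals of the highest control tag and the lowest experimental tag overlapped. Ccnd2 stood at 158, 192 and 183 in control and at 112, 114 and 149 in experimental, while in hair follicle-like cells it stood at 296, 380.1 and 347, and at 265, 296 and 309, with tags that overlapped between the libraries. Over keratinocytes Mxd1 was not alone in this. By level the tags lay apart for Ccnd2, Cdk6 and Rb1 as well, and for Ccnd1 (45.6, 45.9 and 55.5 against 30.6, 23.3 and 32.9). The counting intervals of the nearest tags overlapped for Ccnd2 (154 to 163 against 141 to 157) and Rb1 (30.3 to 34.6 against 25.4 to 32.8). Levels overlapped for Ccnd3, Myc and Mycl, and the nearest levels of Cdk4 were both 43.7. The share of all genes whose tags lay apart was not counted, so this cannot be read as a trait of these genes. Cells without a clear tag held Mxd1 at 61.1 and 255. The hair follicle-like cells without a clear tag, 4916 of 8699 in control and 4205 of 6078 in experimental, held 48.8 and 138, farther apart than in tagged cells. In the Krt8-led cells, found almost entirely in the experimental libraries, Ccnd1 stood at 42.0 CPM, Ccnd2 at 114 and Myc at 54.9 at 1 day, and at 79.0, 47.8 and 64.7 at 1 week.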
